A study of Arabidopsis thaliana with 26 samples.

Results

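Gibberellins are diterpenoid hormones of plants that promote cell elongation and division, and in the root they act in the elongating cells and the meristem. Their active forms are made in the last steps by GA 20-oxidases and GA 3-oxidases and are removed by GA 2-oxidases, which hydroxylate the hormone or its precursors. Active gibberellin bound to a GID1 receptor brings DELLA proteins, the repressors of the response, to an F-box protein of the SLY1 type, and the DELLA protein is then degraded. Described here are 6 genes of this system in Arabidopsis thaliana roots, chosen by locus code from 16255 loci of the deposited matrix. They are the GA 20-oxidase genes GA20OX1 (AT4G25420), GA20OX2 (AT5G51810) and GA20OX3 (AT5G07200), the GA 2-oxidase genes GA2OX6 (AT1G02400) and GA2OX8 (AT4G21200), and SNE (AT5G48170, SNEEZY, also SLY2), an F-box gene related to SLY1. All 6 had a row, each from 1 probe set.

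RNA was measured on 26 microarrays in 10 groups. The SCR cells carried green fluorescent protein driven by the SCARECROW promoter, which is active in the endodermis and the quiescent centre (QC), and were sorted for it from 250 µm root tips of seedlings that were 2 days old when treatment began. They were collected before treatment (0 h, 3 arrays, numbered 1, 3 and 5) and after 24 h, 48 h, 72 h and 96 h on 1 µM 2,4-D, a synthetic auxin (2 arrays each, numbered 2 and 3). Groups with 3 arrays each held QC cells, the slowly dividing organiser of the root stem cells, sorted with the WOX5 promoter from 3-day-old roots: a separate wild type harvest, Col-0 plants raised next to the mutant, and jkd-4 plants, which carry a mutation in the zinc finger gene JACKDAW (JKD). The last groups were excised meristems of wild type and of jkd plants of the same age, 3 arrays each, which contain all cell types of the root tip. No untreated SCR cells were taken after 0 h, so 2,4-D and seedling age cannot be told apart. The labels do not say if replicate arrays stem from separate sets of plants, so p-values reflect the spread between arrays alone, and that spread may be technical.

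Values are MAS5 signals, a linear measure of brightness, and the median signal of an array lay between 57.5 and 102.6. Differences are on the scale of log2(signal + 16), which understates the change of dim genes. They were tested with limma over 11469 probe sets in each fit, and a gene passed at a Benjamini-Hochberg adjusted p under 0.05. The groups were checked against cell type markers. The summed signal of the 7 endodermis markers on the array was 14479 to 24484 at 0 h, 3652 to 4234 at 24 h and 1115 to 1640 at 96 h, while that of 4 QC markers went from 186 to 260.3 at 0 h to 1123 to 1609 at 96 h. Single markers did not all move alike. Mean BBM went from 22.0 at 0 h to 921 at 96 h, and PLT1 from 71.6 to 240. TEL1 went from 5.93 to 64.75 and AGL42 from 118 to 140, with AGL42 at 350 in wild type meristems. Among endodermis markers mean SCR went from 519 to 869, with overlap between 0 h (382.6 to 778.3) and 96 h (663.8 to 1073.6). Mean MYB36 went from 968 to 1305 at 24 h and 180 at 96 h. Its 0 h arrays ran from 259 to 2222 and so spanned the 24 h ones (1138 to 1473). CASP2, CASP4, CASP5, PER64 and SGN3 fell. The separate QC cells had a QC marker sum of 1424 to 1878, but also an epidermis marker sum of 2022 to 2130 over 5 markers. The epidermis sum in SCR cells was 243.6 to 1146 at 0 h, 124 to 210.0 at 24 h and 32.1 to 84.2 at 96 h, and that of 2 pericycle markers 34.6 to 159 at 0 h and 2.7 to 25.4 at 24 h. Arrays 1 and 3 at 0 h stood apart from all other sorted arrays in plastid transcripts. Their mean log2 signals were 7.08 and 7.67, against 10.01 on array 5 at 0 h, 8.99 to 10.02 on the treated arrays, 9.23 to 10.30 on the 9 QC arrays and 7.11 to 7.35 in meristems. Mitochondrial transcripts had the same split, at 5.58 and 6.02 on those 2 arrays, 7.69 on array 5, 7.23 to 8.45 on treated, 7.94 to 9.46 on QC arrays and 5.80 to 5.83 in wild type meristems. Organelle transcripts thus differed between QC and meristem arrays, and between arrays 1 and 3 at 0 h and the treated arrays. Array 5 at 0 h lay within the treated ranges, so the split ran within the untreated group. In sorted or bulk RNA, fewer cells of a type and less RNA per cell cannot be told apart, and the part of these marker and organelle shifts in the results below was not tested. JKD, the mutated gene, had a mean signal of 10.3 in jkd meristems against 186 in wild type meristems (log2 difference -2.95 ± 0.19, SE, adjusted p = 2.31e-06). In the QC it was 10.9 against 83.8 (-1.96 ± 0.52, adjusted p = 0.204), which did not pass.

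**Figure D1:**
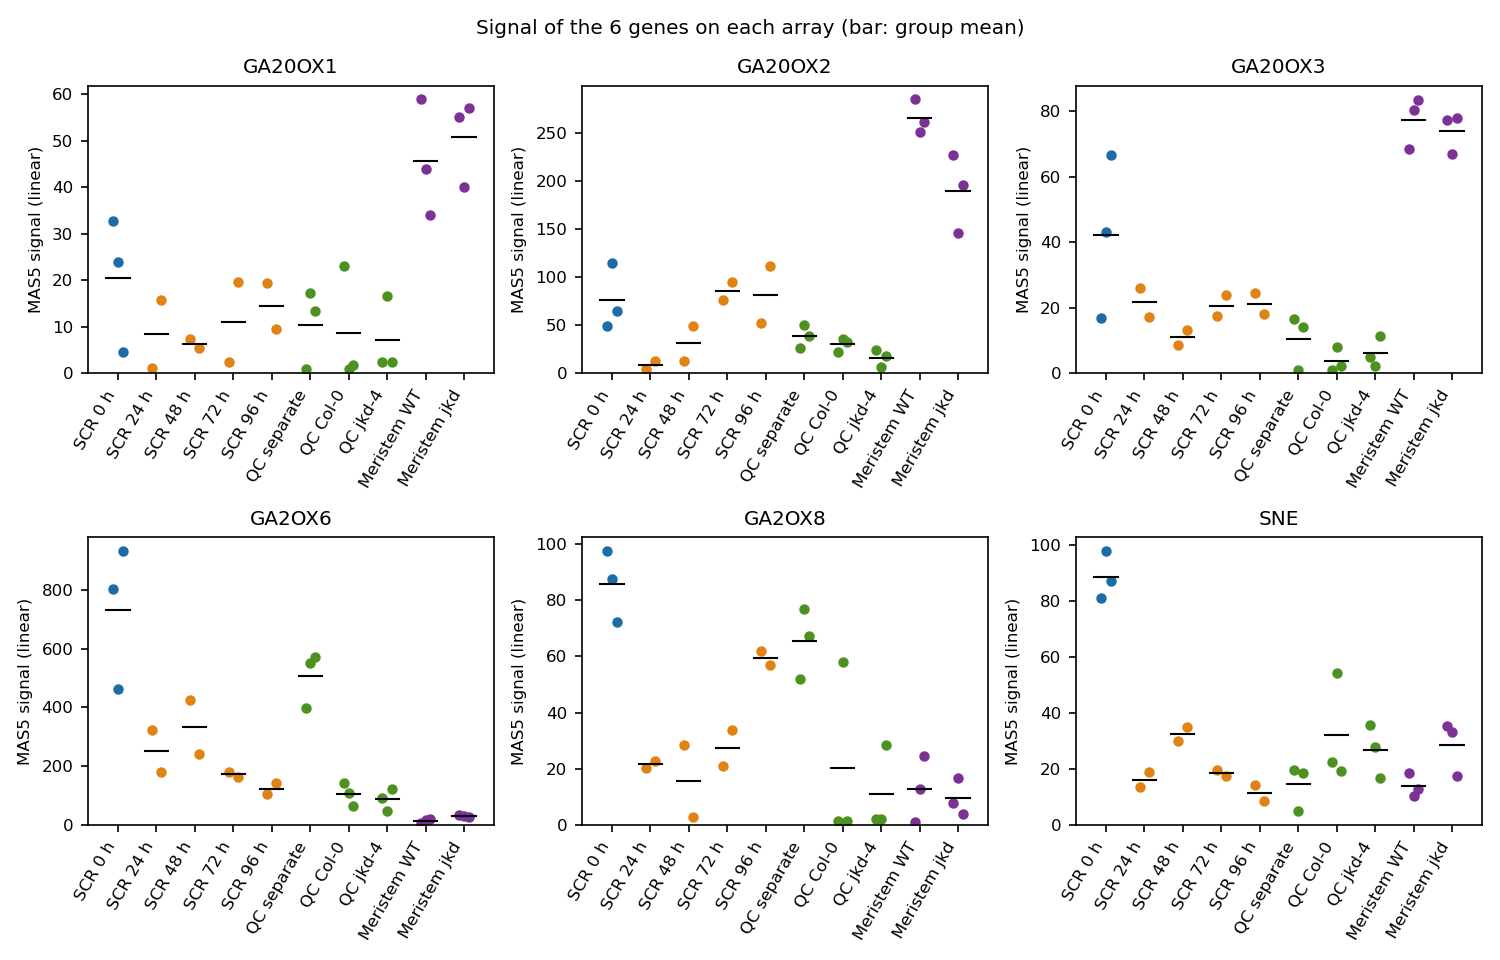
MAS5 signal (linear scale, 1 panel and 1 axis range per gene) of the 6 genes on each of the 26 arrays, with the group mean as a bar. The GA 20-oxidase genes are brightest in the meristem groups, whereas GA2OX6, GA2OX8 and SNE are brightest in untreated SCR cells.

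GA 20-oxidases convert gibberellin precursors to the substrates of the final step, and their transcripts were highest in meristems. GA20OX1 had signals of 58.9, 43.9 and 34.1 in wild type meristems and of 55.0, 40.1 and 57.2 in jkd meristems. Every sorted array was dimmer: 32.8, 24 and 4.5 at 0 h, and between 1.1 and 19.6 over the 8 treated arrays. On the QC arrays GA20OX1 lay between 0.9 and 23.2. Its mean over all 26 arrays was below the 30th percentile of all probe sets (a signal of 21.7), and it was left out of the tests among SCR cells. Without that filter its 24 h difference was -0.55 ± 0.44 (SE, adjusted p = 0.321), and the 8 treated arrays overlapped those at 0 h.

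GA20OX2 was low at 24 h and back in the untreated range at 72 h and 96 h. At 0 h its signals were 49, 114.6 and 64.8. They were 4 and 12.6 at 24 h, 12.5 and 49.6 at 48 h, 76.4 and 95.3 at 72 h, and 52 and 111.5 at 96 h. Both 24 h arrays lay below every untreated array, the 48 h pair was split, and the 72 h and 96 h arrays lay among the untreated ones. GA20OX2 fell at 24 h by 1.88 ± 0.46 (SE, adjusted p = 0.0041), and 27.5% of all genes tested were lower in that comparison. Its differences from 0 h were -1.03 at 48 h (adjusted p = 0.0747), 0.20 at 72 h (0.736) and 0.078 at 96 h (0.896). Between 24 h and 96 h GA20OX2 rose by 1.96 ± 0.50 (adjusted p = 0.0433), as 1 of 5 members tested, with 1.97% of all genes higher. This later call was lost when any 1 of the 4 arrays was left out, with differences from 1.51 to 2.41 and adjusted p from 0.0829 to 0.362. At 48 h the call was gained without array 3 of that time (-1.63, adjusted p = 0.0366).

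GA20OX3 did not pass at any time. Its signals were 16.9, 43.1 and 66.8 at 0 h, 26 and 17.3 at 24 h, 8.7 and 13.2 at 48 h, 17.5 and 23.8 at 72 h, and 24.4 and 18.1 at 96 h. The untreated arrays reached from the treated range to well above it, and only the 48 h arrays lay wholly below them. The difference at 48 h was -1.02 ± 0.42 (adjusted p = 0.058), and without array 1 at 0 h it was -1.38 (adjusted p = 0.0181). On the log2 scale the gene came past the filter through the untreated arrays alone, so nothing is read from that call. At 24 h, 72 h and 96 h the differences ran from -0.58 to -0.54, and quantile normalization turned each of them above 0.

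GA 2-oxidases inactivate gibberellins. GA2OX6 belongs to the enzymes that act on C19 gibberellins, the class that includes the active hormones, and GA2OX8 to those that act on C20 precursors. GA2OX6 signals in SCR cells were 801.8, 460.6 and 931.7 at 0 h, 323.5 and 180.2 at 24 h, 424.6 and 241.3 at 48 h, 178.9 and 163.4 at 72 h, and 104.3 and 141.4 at 96 h. All 8 treated arrays were below the 3 untreated ones, and the 96 h arrays were the lowest. GA2OX6 fell at every time, with differences from 0 h of -1.48 ± 0.37 at 24 h (SE, adjusted p = 0.00547), -1.09 ± 0.37 at 48 h (0.0263), -1.94 ± 0.37 at 72 h (0.000838) and -2.38 ± 0.37 at 96 h (0.000159). Between 24 h and 96 h the difference was -0.91 ± 0.41 (adjusted p = 0.287). The 72 h and 96 h calls held without any single array of the compared groups. At 24 h the adjusted p was 0.0868 without array 3 of that time. At 48 h it was 0.269 without array 3 of that time, where the difference was -0.70, and it was 0.0691 without array 1 at 0 h and 0.0604 without array 5 at 0 h.

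GA2OX8 took another course. Its signals were 97.6, 87.6 and 72.3 at 0 h, 20.2 and 22.8 at 24 h, 28.3 and 2.8 at 48 h, 21.1 and 33.9 at 72 h, and 61.8 and 57.1 at 96 h. Every treated array lay below every untreated one, but the 96 h arrays lay close to them and above all arrays of 24 h to 72 h. GA2OX8 fell at 24 h (-1.43 ± 0.40, SE, adjusted p = 0.00925), at 48 h (-1.81 ± 0.40, 0.00215) and at 72 h (-1.24 ± 0.40, 0.0197). At 96 h the difference was -0.43 ± 0.40 (adjusted p = 0.388), and between 24 h and 96 h it was 1.01 ± 0.44 (0.257). Leaving out array 2 at 24 h gave an adjusted p of 0.0545 for that time. Without array 3 at 48 h it was 0.0585, with a smaller difference of -1.19. At 72 h it was 0.139 without array 2 of that time and 0.0566 without array 1 at 0 h. Quantile normalization also took the 24 h and 72 h adjusted p to 0.105 and 0.186.

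SNE codes for an F-box protein that can stand in for SLY1 in bringing DELLA proteins to degradation, and it is known as a target of the ground tissue regulator SHORT-ROOT (SHR). Its signals were 81.1, 98.1 and 87.2 at 0 h, 13.6 and 18.7 at 24 h, 29.8 and 35.1 at 48 h, 19.6 and 17.5 at 72 h, and 14.2 and 8.4 at 96 h. The untreated arrays lay close together and well above all treated arrays, and the 48 h pair was the highest of these. SNE fell at every time, with differences of -1.71 ± 0.34 at 24 h (SE, adjusted p = 0.00115), -1.11 ± 0.34 at 48 h (0.0149), -1.60 ± 0.34 at 72 h (0.00164) and -1.95 ± 0.34 at 96 h (0.000356). It was the only member besides GA2OX6 that passed at all 4 times. The 24 h, 72 h and 96 h calls held without any single array. SNE passed the filter through its 0 h and 48 h arrays, its log2 means at 24 h, 72 h and 96 h being below the limit (a signal of 21.5). Nothing is read from the number of its calls or from their holding. At 48 h the adjusted p was 0.101 without array 2 and 0.0621 without array 3 of that time, and after quantile normalization the difference was -0.49 (adjusted p = 0.236). SHR itself had a mean signal of 63.9 at 0 h, 173.6 at 24 h and 219 at 96 h. The SHR difference was 1.24 ± 0.46 at 24 h (adjusted p = 0.0399) and 1.52 ± 0.46 at 96 h (0.0138). The 24 h call of SHR was lost without any 1 of the 5 arrays (adjusted p 0.0544 to 0.201), and that at 96 h without array 3 of that time (0.135).

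**Figure D2:**
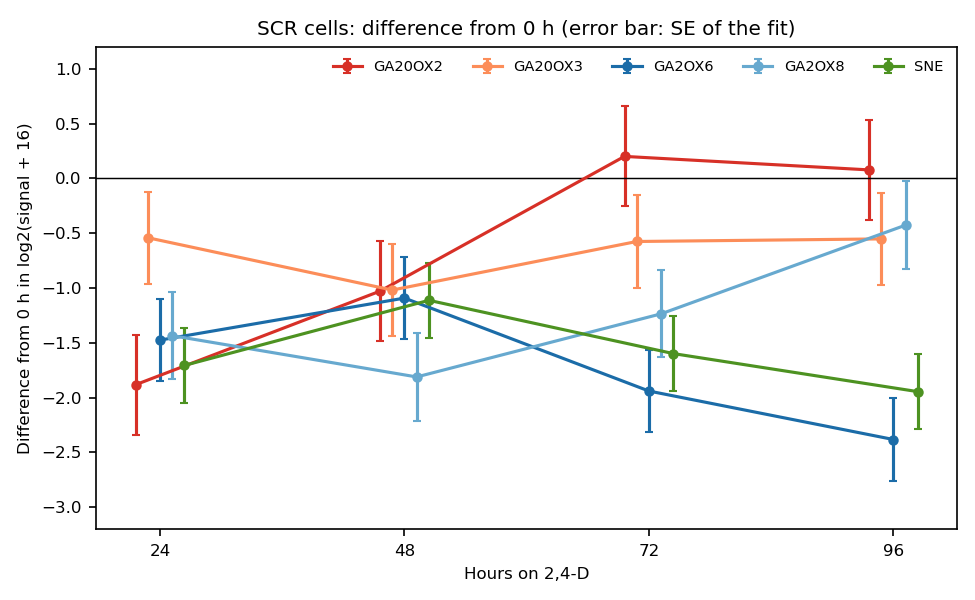
Difference of each treated time from 0 h in SCR cells for the 5 tested genes, in log2(signal + 16), with the standard error of the fit as bars and points set slightly apart at each time. GA20OX2 is at -1.88 at 24 h and 0.078 at 96 h, whereas GA2OX6 and SNE are at -2.38 and -1.95 at 96 h.

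Over the time course, 4 of the 5 tested members fell at 24 h, 3 at 48 h (27.2% of all genes tested were lower), 3 at 72 h (26.4%) and 2 at 96 h (27.7%), and none rose against 0 h. For 3 of the 6 genes, namely GA2OX6, GA2OX8 and SNE, each treated array was below each untreated one, an arrangement that 26.9% of all genes tested showed. These comparisons share the 3 untreated arrays and are not independent of each other. On the log2 scale, the mean of GA20OX3 was below the filter's limit (a signal of 21.5) at every treated time. That of SNE was below it at 24 h, 72 h and 96 h, that of GA20OX2 at 24 h and that of GA2OX8 at 48 h. These genes entered the tests through their brighter groups, and nothing is read from the counts. The median difference over all genes tested was -0.21 at 24 h and -0.11 at 96 h, and 0.034 and 0.084 after quantile normalization. With array 5 as the only untreated array, the one like the treated arrays in organelle transcripts, a setting added after seeing the data, the lone array is assumed to vary like the other groups. At 24 h the differences were then -1.76 for GA20OX2 (adjusted p = 0.0274), -1.88 for GA2OX6 (0.00457) and -1.69 for SNE (0.0174), while GA2OX8, at -1.24, no longer passed (0.0933). At 96 h GA2OX6 (-2.78, 0.000227) and SNE (-1.93, 0.00743) passed. In the same setting SNE at 48 h (0.0981) and GA2OX8 at 72 h (0.154) lost their calls, and GA20OX3 at 48 h gained one (-1.62, 0.0223).

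The QC was compared with SCR cells before treatment and at its end. SNE set untreated SCR cells apart from the separate QC harvest, where its signals were 19.7, 5 and 18.6. All 3 arrays at 0 h were higher than these, and SNE was higher in SCR cells by 1.82 ± 0.31 (SE, adjusted p = 0.000193), as 1 of 4 members tested, with 25.5% of all genes higher. GA2OX6 had signals of 397.8, 551.6 and 572.6 and GA2OX8 of 52.1, 77.1 and 67.3 in the same QC cells. Both overlapped the untreated SCR cells, with differences of 0.47 ± 0.31 (adjusted p = 0.219) and 0.33 ± 0.33 (0.434). GA20OX2 had 25.9, 50.6 and 38.8 in the QC, again with overlap (0.72 ± 0.39, adjusted p = 0.133). GA20OX3, at 16.6, 1 and 14.1 in the QC, was below each untreated SCR array. It did not pass the filter here and without the filter differed by 1.09 ± 0.38 (adjusted p = 0.023). GA20OX1, also below the filter, differed by 0.43 ± 0.39 (adjusted p = 0.392) and overlapped. SNE passed the filter through the untreated SCR cells, its QC mean being below the filter's limit. The Col-0 QC was not tested against SCR cells. Its arrays, at 64.9 to 142 for GA2OX6 and 1.21 to 58.1 for GA2OX8, lay below every untreated SCR array. The overlap of these genes was thus seen with the separate harvest only.

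After 96 h on 2,4-D the order was different. GA2OX6 was lower in SCR cells than in the separate QC, with a difference of -1.91 ± 0.35 (SE, adjusted p = 0.000622), and 16.5% of all genes tested were lower. This rested on the harvest, since the GA2OX6 signals of the Col-0 QC (64.9 to 142) overlapped the 96 h arrays (104.3 and 141.4). The Col-0 QC was not tested against SCR cells. Against the separate QC no other member of the 4 tested passed. SNE, at 14.2 and 8.4 in SCR cells, overlapped the separate QC (-0.13 ± 0.35, adjusted p = 0.825), as did GA2OX8 (-0.10 ± 0.37, 0.87). Both GA20OX2 arrays at 96 h lay above the QC arrays, without passing (0.80 ± 0.44, adjusted p = 0.179). GA20OX1 and GA20OX3, dropped by the filter here, differed by 0.24 ± 0.44 (0.766) and 0.54 ± 0.42 (0.428) without it. Quantile normalization moved the median of all genes in this comparison from 0.0091 to 0.15 and put the SNE and GA2OX8 differences above 0.

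Between the separate QC and the whole meristem, GA20OX2 was the only member whose test was not shaped by the filter on low signal. Between the separate QC harvest and wild type meristems 58.3% of all genes tested passed, 27.0% higher and 31.3% lower in the QC. GA20OX1 and GA20OX3 came past the filter (a signal of 20.5) only through the meristem, and GA2OX6 and GA2OX8 only through the QC, so their tests were bound to differ and no count is drawn from them. GA20OX2 was above that limit in both groups. GA20OX2 had signals of 285, 251 and 262 in meristems and was lower in the QC (-2.40 ± 0.22, SE, adjusted p = 7.34e-07). GA20OX3 had 68.4, 80.5 and 83.6 in meristems (-1.87 ± 0.29, adjusted p = 6.89e-05). GA20OX1 was lower in the QC too (-1.26 ± 0.31, adjusted p = 0.00285). The QC and meristem arrays of these 3 genes did not overlap. The share of all genes without overlap was not computed here, so nothing is read from that. GA2OX6 went the other way, with 4.37, 17.5 and 18.5 in meristems, all below the QC arrays (4.17 ± 0.25, adjusted p = 1.06e-08). GA2OX8 had 1.09, 12.8 and 24.6 in meristems and was higher in the QC by 1.58 ± 0.31 (adjusted p = 0.000617). SNE did not pass the filter, with mean signals of 14.4 in the QC and 13.9 in the meristem, and without the filter it differed by -0.0036 ± 0.29 (adjusted p = 0.993). Sorted protoplasts and excised tissue differ in handling, and the arrays also differ in the number of decimals deposited, so cell type and preparation cannot be told apart here.

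The 2 wild type QC harvests were not alike in GA 2-oxidase signal. GA2OX6 had 142, 109 and 64.9 in the Col-0 QC cells, all below the separate harvest, a difference of -2.14 ± 0.30 (SE, adjusted p = 0.000305). It was 1 of 3 members tested that passed, with 13.0% of all genes lower. GA2OX8 had 1.21, 58.1 and 1.47, so array 2 was near the separate harvest and the other 2 were far below it. Its difference was -1.52 ± 0.55 (adjusted p = 0.0619) with that array and -2.22 (0.000883) without it. GA2OX8 came past the filter (a signal of 24.3) only through the separate harvest, its Col-0 mean being below that limit. Nothing is read from either adjusted p. GA20OX2, at 22.1, 36.2 and 32.6, overlapped (-0.22 ± 0.40, adjusted p = 0.735). Without the filter GA20OX1 differed by -0.16 ± 0.41 (0.85), GA20OX3 by -0.39 ± 0.35 (0.526) and SNE by 0.63 ± 0.46 (0.423). Beside this, the summed endodermis markers were 2469 to 3497 in the separate harvest and 1167 to 1657 in the Col-0 QC, and the summed root cap markers (4 on the array) 1112 to 1286 and 331 to 551. The QC markers themselves summed to 1424 to 1878 in the separate harvest and 642 to 1167 in the Col-0 QC, and the pericycle markers, the other way, to 57.7 to 67.5 and 146 to 252. Single markers did not all follow their sums. From the separate to the Col-0 QC, mean COBL2 (root cap) went from 35.0 to 122.6 and AGL42 (QC) from 83.3 to 154. SCR (248.5 and 255.9), SMB (root cap, 191 and 186) and SKOR (pericycle, 21.3 and 20.8) stayed near level. The other markers of these lists moved with their sums. The part of these marker differences in the GA2OX6 difference was not tested. With the Col-0 QC against the meristem, a comparison added after seeing the data, GA20OX2 (-2.62 ± 0.26), GA20OX3 (-2.26 ± 0.31) and GA2OX6 (2.03 ± 0.36) passed, where 49.6% of all genes did. GA20OX3 was dim in this QC (a mean signal of 3.74) and GA2OX6 in the meristem (13.4). Each was thus tested because of its brighter group, and nothing is read from the number passing. The GA2OX6 difference was thus smaller with this harvest than the 4.17 with the other, and GA20OX1, GA2OX8 and SNE did not pass the filter in it.

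No member passed in the jkd mutant. In the QC, where 0.105% of all genes passed, only GA2OX6 and SNE were bright enough to be tested. GA2OX6 had signals of 91.5, 48.0 and 121 in jkd-4 QC cells and SNE had 35.7, 27.8 and 16.8. Both overlapped the Col-0 QC, with differences of -0.26 ± 0.46 (SE, adjusted p = 0.911) and -0.12 ± 0.52 (0.972). Without the filter the other members differed by -0.033 (GA20OX1), -0.56 (GA20OX2), 0.16 (GA20OX3) and -0.21 (GA2OX8), with adjusted p from 0.821 to 0.994. In the meristem 0 of 5 tested members passed in limma's test at an adjusted p under 0.05, where 0.933% of all genes passed. At an unadjusted p under 0.05 there were 3 of these members and 922 of the 11469 genes. GA2OX6 and SNE were below the filter's limit (a signal of 15.4) in wild type meristems and passed it only through jkd meristems. Nothing is therefore read from that count. GA20OX2 was at 228, 146 and 196 in jkd meristems, below all wild type arrays (-0.47 ± 0.20, adjusted p = 0.533). GA2OX6 was at 31.7, 28.9 and 27.8, above all wild type arrays (0.67 ± 0.21, adjusted p = 0.272). SNE was at 35.3, 33.1 and 17.4 and overlapped wild type, at 18.7, 10.2 and 12.8 (0.56 ± 0.20, adjusted p = 0.398). GA20OX1 and GA20OX3 differed by 0.13 ± 0.21 and -0.053 ± 0.18 (adjusted p = 0.998 for each), and GA2OX8 by -0.13 ± 0.30 without the filter (0.994). The jkd effect in the QC minus that in the meristem passed for 0 of 5 members and for 0 genes in all (909 at an unadjusted p under 0.05). That difference was -0.92 ± 0.53 for GA2OX6 (adjusted p = 0.725) and -0.68 ± 0.50 for SNE (0.807), and without the filter -0.083 ± 0.73 for GA2OX8 (0.994).

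**Figure D3:**
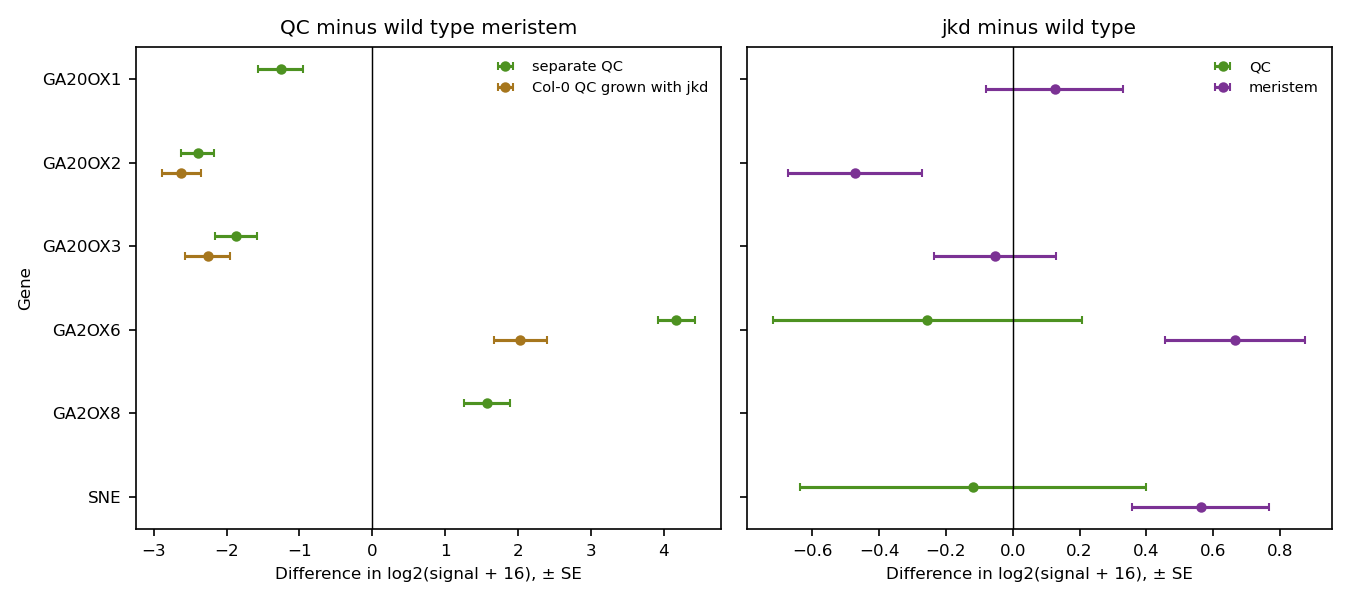
Differences in log2(signal + 16) with their standard errors, on the left for QC cells minus wild type meristem with either wild type QC harvest, on the right for jkd minus wild type in QC and meristem. Genes without a point did not pass the filter on low signal. GA20OX genes lie below 0 and GA2OX genes above 0 on the left, with GA2OX6 at 4.17 and 2.03, and no difference on the right passed the test. For the separate QC only GA20OX2 was above the filter's limit in both groups. The other points of that comparison were bound to lie off 0, and nothing is read from their directions.

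Other genes of the gibberellin pathway were followed with a list of 34 genes, of which 25 had a row and 14 were tested in SCR cells. At 24 h 4 rose and 4 fell, beside 20.7% higher and 27.5% lower over all genes. The largest increase was that of GA3, the gene of ent-kaurene oxidase, an early enzyme of the pathway, from a mean signal of 169.6 at 0 h to 1166 at 24 h and 1859 at 96 h (2.56 ± 0.39 and 3.36 ± 0.39, adjusted p = 0.000155 and 1.35e-05). The receptor genes GID1C and GID1A rose by 2.22 ± 0.39 (adjusted p = 0.00052) and 1.13 ± 0.27 (0.00355) at 24 h, and by 1.99 ± 0.39 (0.000929) and 1.68 ± 0.27 (0.000171) at 96 h. These calls of GA3 and both receptor genes held without any single array. At 48 h 4 genes of the list rose and 2 fell, beside 21.8% higher and 27.2% lower over all genes, and at 72 h 3 rose and 2 fell (23.0% and 26.4%). GA3 was at 2.95 and 3.22 and GID1C at 2.13 and 2.27 at these times. GID1B, the remaining receptor gene, did not pass at any time.

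Genes of the same enzyme families as the members also passed at 24 h. GA20OX5, another GA 20-oxidase family member, went from a mean of 175.6 at 0 h to 24.7 at 24 h and 17.8 at 96 h (-2.09 ± 0.64 and -2.16 ± 0.64, adjusted p = 0.0168 and 0.0129). Its 24 h adjusted p was 0.198 without array 3 of that time, with a difference of -1.29, and 0.0525 without array 1 at 0 h, and its 96 h value was 0.0883 without array 3 of that time. The 96 h mean of GA20OX5 was below the filter's limit (a signal of 21.5), so nothing is read from that call. GA2OX2, a GA 2-oxidase acting on C19 gibberellins, went from 257 to 113 at 24 h and 112 at 96 h (-1.02 ± 0.33 and -1.03 ± 0.33, adjusted p = 0.0217 and 0.019). For GA2OX2, leaving out array 3 at 0 h or either treated array gave 0.0612 to 0.12 at 24 h and 0.0695 to 0.0818 at 96 h. With array 5 as the only untreated array neither gene passed at 24 h (GA20OX5 -0.96, adjusted p = 0.253, and GA2OX2 -0.50, 0.322) or at 96 h (0.215 and 0.308).

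Among the DELLA genes, RGL2 fell by 1.48 ± 0.47 at 24 h (adjusted p = 0.0179; 0.146 without array 3 of that time) and RGL3 rose by 1.34 ± 0.48 (0.0347). The RGL3 call was lost without array 1 or 5 at 0 h or either 24 h array (0.0587 to 0.129). RGL1 rose at 96 h, from a mean of 37.7 to 165.8 (1.76 ± 0.33, adjusted p = 0.000658), and held without any single array. SEC, an enzyme that modifies DELLA proteins, fell by 1.57 ± 0.43 at 24 h (0.00857; 0.0819 without array 2 of that time and 0.197 with array 5 as the only untreated array). At 96 h 4 genes of the list rose and 3 fell, beside 24.7% higher and 27.7% lower over all genes. SLY1, the close relative of SNE, did not pass at any time.

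Of 13 genes listed as responding to gibberellin or DELLA proteins, 8 had a row and 5 were tested. At 24 h none rose and 2 fell (20.7% and 27.5% of all genes), and at 96 h 2 rose and 2 fell (24.7% and 27.7%), so the counts are near the background. EXPA8, an expansin gene, went from a mean of 122.5 to 12.5 at 24 h and 1.85 at 96 h (-2.38 ± 0.45 and -2.94 ± 0.45, adjusted p = 0.000767 and 0.000121). GAF1, the gene of a zinc finger protein that binds DELLA proteins, went from 84.0 to 2.95 and 17.7 (-2.41 ± 0.35 and -1.57 ± 0.35, adjusted p = 0.000117 and 0.00208). Both genes held their calls without any single array. Their means at 24 h and 96 h were below the filter's limit (a signal of 21.5), so they were tested through brighter groups. Nothing is read from these calls or from their holding. At 96 h GASA14 (2.43 ± 0.76, adjusted p = 0.0209) and MYB33 (0.96 ± 0.34, 0.0303) rose. The GASA14 call was lost without either 96 h array (0.0778 and 0.0999), and that of MYB33 without array 1 or 3 at 0 h or either 96 h array (0.0628 to 0.136).

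**Figure D4:**
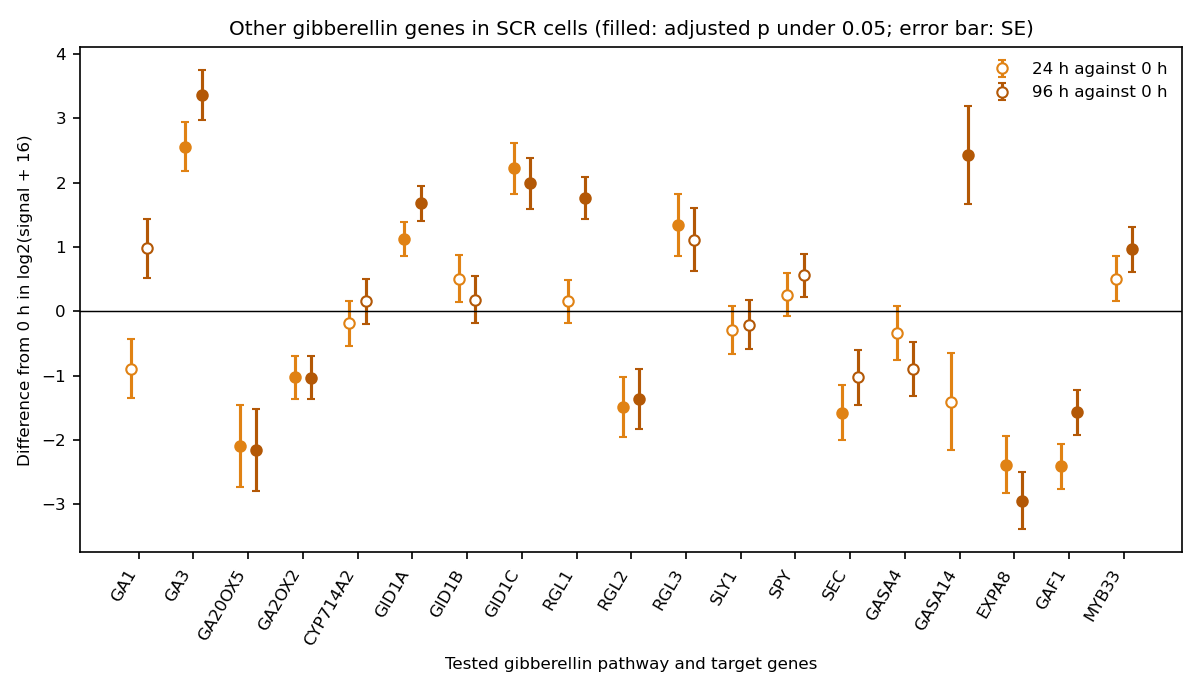
Difference from 0 h in SCR cells at 24 h and 96 h, in log2(signal + 16) with standard errors, for the tested pathway and target genes that are not among the 6. Filled points passed the test. GA3 and GID1C are the highest of the pathway genes at 24 h, at 2.56 and 2.22, and EXPA8 is at -2.94 at 96 h.

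Between the separate QC and wild type meristems, 8 of 15 tested pathway genes were higher in the QC and 3 were lower, beside 27.0% and 31.3% of all genes. GA2OX2 (2.26 ± 0.28, SE, adjusted p = 1.23e-05) and GA20OX5 (1.71 ± 0.26, 7.22e-05) were both higher, so GA20OX5 ran against the 3 GA 20-oxidase members. GID1C was higher as well (1.58 ± 0.25, adjusted p = 0.000107), and SLY1 (-1.62 ± 0.18, 4.29e-06) and RGL2 (-1.10 ± 0.23, 0.000891) were lower. The direction of GA3 rested on the harvest, with 0.47 ± 0.17 (adjusted p = 0.0288) for the separate QC and -0.95 for the Col-0 QC. RGL1 was likewise at 1.11 ± 0.23 (0.000935) with the former and at -0.27 with the latter. For untreated SCR cells against the separate QC, 3 of 14 tested pathway genes were higher and 5 lower, beside 25.5% and 25.7% of all genes, with GA3 at -2.85 ± 0.31. At 96 h 3 were higher and 1 lower (13.8% and 16.5% of all genes), with GA1, the gene of an early enzyme of the pathway, at 2.05. Of 16 tested between the Col-0 and the separate QC, GA3 (-1.42 ± 0.24, adjusted p = 0.00102) and RGL1 (-1.37 ± 0.36, 0.0146) were lower, beside 13.0% of all genes. The RGL1 call was lost without any 1 of the separate arrays (0.0540 to 0.0776). In the jkd comparisons none of the 14 tested pathway genes passed in either tissue.

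As a description over the 10 group means, the 3 GA 20-oxidase genes varied together, with Pearson's r from 0.83 to 0.93. Both meristem groups were the brightest for all 3 genes, and GA20OX1 had mean signals of 6.4 to 20.4 in the other groups. How far these r values rest on the meristem groups was not tested. GA2OX6 and GA2OX8 had r = 0.70, and GA2OX6 against the GA 20-oxidase genes had r from -0.62 to -0.47, and GA2OX8 against the same genes had r from -0.15 to -0.012. SNE had r from -0.047 to 0.41 with the other 5 genes. Several of the groups share a sorting method or a harvest, and no p was computed. Among 11085 probe sets above the 30th percentile, those most like each member over the 10 group means were AT4G31310 for GA20OX2 (r = 0.97), APG1 for GA20OX3 (0.99), CBL1 for GA2OX6 (0.97), CID12 for GA2OX8 (0.96) and AT5G35680 for SNE (0.92). The next closest were GR-RBP6 and AT5G02590 for GA20OX2, AT5G41650 and PIR121 for GA20OX3, AT5G35580 and LOX3 for GA2OX6, AT4G09560 and AT1G73660 for GA2OX8, and AT5G12880 and AT3G61820 for SNE. GA20OX1 lay below that percentile and was not matched.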

How the data were processed

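RNA from sorted protoplasts or excised meristems was amplified before labelling, per the labels' protocols. The authors deposited 1 signal intensity per probe set and array, with MAS5 named in the submitters' processing notes. Its version, its scaling, the array type and the build are not given. Values have 1 decimal on 14 arrays and 2 decimals on 12. Here, log2(signal + 16) was used without further normalization, in limma 3.58.1 under R 4.3.3 (eBayes with trend and robust, after lmFit), for probe sets at or above the 30th percentile of each fit, with Benjamini-Hochberg adjustment over all of these. The 11 SCR arrays formed 1 fit, joined by the separate QC where compared, and other fits held only the groups compared. The number of arrays limits the precision. Gene names came from RefSeq by locus. The 6 genes, the lists and the settings were chosen with earlier results of these data known. The 6 genes are given in every comparison, and listed genes by counts with examples. Steps were tested on simulated data. The jkd genotype was read from titles and source names, since some descriptions cite another role. Alternatives were other pseudocounts, no filter, quantile normalization, plain eBayes, array weights, 1 fit of all 26 arrays, the series value table, the replicate block, the 8 treated arrays alone and leaving out each array. Array 5 as the only untreated array and the Col-0 QC against the meristem were added after seeing the data.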

Additional observations from a re-analysis of the deposited data

How the results depend on the processing

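Where no cause is named, it was not tested. The number of members passing at 24 h was 4 and stayed at 3 or 4 without any 1 array. At 48 h it was 3, became 5 in 1 fit of all 26 arrays, and ranged from 1 to 3 when 1 array was left out, with 1 left without array 3 of 48 h. Between 24 h and 96 h the single call was lost, leaving 0, with a pseudocount of 64, without the filter, with quantile normalization, with array weights and without any 1 array (0 to 0). For SCR 0 h against the separate QC the count went from 1 to 2 without the filter, which adds GA20OX3, and in 1 fit of all arrays. With the Col-0 QC in place of the separate one, 3 members passed against the meristem instead of 5, fewer being tested. For Col-0 QC against separate QC the count of 1 became 2 with array weights, in 1 fit of all arrays and without array 2 of the Col-0 QC (range 1 to 2).

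With the replicate number as a block the count was 2 at 24 h, 1 at 48 h and 2 for Col-0 QC against separate QC, and GA20OX2 turned to -0.0032 at 72 h and to -0.13 at 96 h. It ended the calls of GA2OX6 at 24 h (-1.05, adjusted p = 0.0722) and 48 h (-0.66, 0.241), of GA2OX8 at 24 h (0.0504) and 72 h (0.0793) and of SNE at 48 h (0.0796). The labels give no pairing, and deviations of same-numbered arrays correlated at -0.11 to 0.047 in groups with 3 pairs and at -0.030 to 0.18 among treated SCR groups with 2.

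Members that had not passed changed direction as follows. Quantile normalization gave GA20OX3 0.13 at 24 h, 0.0831 at 72 h, 0.19 at 96 h and 0.0641 for 96 h against 24 h, GA2OX8 0.0426 at 96 h and 0.22 for SCR 96 h against QC, SNE 0.0813 for SCR 96 h against QC and 0.13 for jkd in the QC, and GA20OX2 0.17 for the jkd effect between tissues. Array weights gave SNE 0.10 for jkd in the QC, and a pseudocount of 64 gave GA20OX2 0.15 between tissues. Leaving out 1 array, GA20OX2 ranged from -0.0186 to 0.48 at 72 h and from -0.38 to 0.53 at 96 h, and GA20OX3 from -0.18 to 0.16 for 96 h against 24 h. Against the QC at 96 h, GA2OX8 ranged from -0.22 to 0.0018 and SNE from -0.37 to 0.0289. For jkd in the QC, GA2OX6 ranged from -0.52 to 0.0511 and SNE from -0.30 to 0.19. For jkd in the meristem, GA20OX1 ranged from -0.0141 to 0.28 and GA20OX3 from -0.12 to 0.0048. Between tissues, GA20OX1 ranged from -0.43 to 0.23 and GA20OX2 from -0.26 to 0.17. With the Col-0 QC, GA3 was at -0.95, CYP714A2 at -0.70 and RGL1 at -0.27 against the meristem. The series value table and the 8 treated arrays alone changed no call. With array 5 as the only untreated array, 3 members passed at both 24 h and 48 h, and 2 passed at both later times. Signals near the filter, as for GA20OX1, limit what could be tested.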
